A study of Homo sapiens with 2 samples.

Results

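Metallothioneins are small, cysteine-rich proteins that bind zinc and copper and also capture cadmium and other toxic metals. MTF1, the metal-responsive transcription factor, is activated by zinc and drives metallothionein genes through short metal response elements in their promoters. Glucocorticoids and oxidative stress are also known inducers of the family in lung epithelial cells. The genes examined were MT1E, MT1F, MT1G, MT1M, MT1X, MT2A and MTF1. They were picked by symbol, and all 7 were found among the 24462 gene symbols of the count files.

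A549, a widely used cell line from a human lung adenocarcinoma, was the only material. Cells were grown in DMEM with fetal bovine serum and transfected with siRNAs, and polyadenylated RNA was read at its 3' end with the Lexogen QuantSeq kit. There was 1 library from cells given control siRNAs (10396047 counts) and 1 from cells given siRNAs against ADGRF4, an adhesion G protein-coupled receptor (9825320 counts). The question was how silencing of ADGRF4 alters gene expression. Neither treatment was replicated, so nothing was tested and each comparison sets 1 library against 1 library. Ranges in parentheses are exact 95% intervals for counting error alone. ADGRF4 was counted 3 times (0.619 to 8.77) with control siRNA and 1 time (0.0253 to 5.57) with ADGRF4 siRNA. These intervals overlap and neither count exceeds 3, the floor used here, so the silenced gene does not check the labels. All 9 A549 markers examined, keratins and aldo-keto reductases among them, had at least 38 counts in each library. Their levels were not alike in the libraries. By the 2-fold rule given below, 1 was higher with ADGRF4 siRNA and 4 lower, against 7.84% and 10.4% of all compared symbols. With control and ADGRF4 siRNA, KRT7 had 7451 and 16919 counts, CDH1 1218 and 239, AKR1B10 10425 and 1828, and AKR1C1 9358 and 2722. Of 9 markers of leukocytes, endothelium and fibroblasts, 7 had no more than 7 counts in either library, while CD14 had 45 and 30 and COL1A1 had 50 and 45.

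Promoter windows were matched in RefSeq (GRCh38.p14) for MT2A, MT1X and MTF1. Each window runs from 250 bases before to 50 bases after the gene's start. Metal response element cores, spelled TGCACNC or TGCGCNC and searched on both strands, are in capitals below. The windows of MT2A and MT1X are shown because these genes were read in both libraries. That of MT1H, a metallothionein gene beside them on chromosome 16, is shown because it holds as many cores as MT2A and had no count in either library. All 3 lie on the plus strand, MT2A at chr16:56608334-56608633, MT1X at chr16:56682220-56682519 and MT1H at chr16:56669564-56669863.
MT2A: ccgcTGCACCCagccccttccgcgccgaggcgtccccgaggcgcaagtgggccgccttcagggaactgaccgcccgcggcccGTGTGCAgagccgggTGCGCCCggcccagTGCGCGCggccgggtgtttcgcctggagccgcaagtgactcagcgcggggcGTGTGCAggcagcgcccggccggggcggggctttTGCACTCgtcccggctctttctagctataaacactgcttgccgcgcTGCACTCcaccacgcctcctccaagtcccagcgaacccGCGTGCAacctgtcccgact
MT1X: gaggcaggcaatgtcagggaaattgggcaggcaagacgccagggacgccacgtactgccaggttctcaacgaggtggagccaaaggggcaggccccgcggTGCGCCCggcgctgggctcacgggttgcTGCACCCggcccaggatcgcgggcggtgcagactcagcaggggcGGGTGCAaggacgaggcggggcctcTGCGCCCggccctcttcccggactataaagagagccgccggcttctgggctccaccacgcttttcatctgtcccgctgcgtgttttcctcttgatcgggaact
MT1H: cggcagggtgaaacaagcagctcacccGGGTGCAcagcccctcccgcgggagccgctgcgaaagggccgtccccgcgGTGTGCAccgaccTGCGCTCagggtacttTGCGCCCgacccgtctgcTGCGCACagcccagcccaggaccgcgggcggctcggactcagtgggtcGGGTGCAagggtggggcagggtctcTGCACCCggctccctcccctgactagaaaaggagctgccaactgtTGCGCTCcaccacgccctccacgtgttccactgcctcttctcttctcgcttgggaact

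The MT2A and MT1H windows each hold 8 cores, and the MT1X window holds 4. Of 35116 RefSeq promoter windows of this length, 29.6% hold at least 1 core, 0.601% hold at least 4 and 7 windows (0.0199%) hold at least 8. The MTF1 window holds 0 matches. MT1B and MT4, whose windows hold 3 cores each (2.30% of windows hold at least 3), had no count in either library, as was the case for MT1H. Thus 8 cores stood beside the highest counts of the family in MT2A and beside 0 counts in MT1H, while MT1X, with 4 cores, had 84 and 105 counts. Of the 50-base windows in the last 300 transcript bases of MT1H, 28.3% also occur in transcripts of MT1G or MT1HL1. MT1G had 6 counts with control siRNA and 1 with ADGRF4 siRNA, and MT1HL1 had 0 in both. No more reads of MT1H than these could have been credited to MT1G or MT1HL1. The MT2A window also holds 1 AP-1 site (TGANTCA, in 7.71% of all windows), which lies inside its single match to the antioxidant response element core (TGACNNNGC, in 13.3%). It has 1 TATA box (TATAAA, in 11.5%) and 2 GC boxes (GGGCGG, in 45.0%). The MT1X window shares the TATA box and the pair of GC boxes. It also holds 1 match to the antioxidant response element core, and has no AP-1 match. The MT1H window holds 1 GC box and no match to the TATA box, the AP-1 site or the antioxidant response element core. The windows of MT2A and MT1H are thus alike in the number of cores only.

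MT2A, the most widely expressed metallothionein gene, supplied nearly all metallothionein counts in these cells. It was counted 4246 times with control siRNA and 3846 times with ADGRF4 siRNA, which placed it at rank 371 and rank 385 of all symbols. Levels are given as counts per 1000000 (CPM) of library sizes adjusted by TMM, the trimmed mean of log ratios over genes. MT2A stood at 388 CPM (376 to 400) with control siRNA and 412 CPM (399 to 425) with ADGRF4 siRNA. Among the counts of the 16 metallothionein loci found in the files, MT2A took 94.1% (93.4 to 94.8) with control siRNA and 93.9% (93.2 to 94.7) with ADGRF4 siRNA. A 3' end library gives about 1 tag per transcript, so levels of different genes are compared here as CPM with no division by length.

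The MT1 genes were read far less. MT1F was counted 127 and 122 times, with control and ADGRF4 siRNA in that order here and below, or 11.6 CPM (9.67 to 13.8) and 13.1 CPM (10.9 to 15.6). MT1X had 84 and 105 counts, or 7.67 CPM (6.12 to 9.50) and 11.3 CPM (9.20 to 13.6). Both encode metal-binding metallothionein-1 isoforms, and MT1F lay above MT1X with control siRNA, where their intervals did not overlap, whereas with ADGRF4 siRNA the intervals overlapped. MT1F made up 2.82% and 2.98% of the metallothionein counts, and MT1X 1.86% and 2.56%.

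MT1G had 6 counts and 1 count, MT1E had 0 and 1, and MT1M had 0 in both. The floor was set at 3 counts, or 0.274 and 0.321 CPM, and the exact interval of a count of 0 reaches 3.69 counts. MT1E and MT1M did not exceed this floor, so this depth does not resolve their levels. The levels ran from MT2A through MT1F and MT1X to the pseudogene MT1DP in both libraries, and the order of MT1F and MT1X was not set beyond counting error with ADGRF4 siRNA.

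MT1DP, a transcribed pseudogene of the cluster, was the only metallothionein locus outside the 7 genes with more than 3 counts in a library. It was counted 46 and 19 times, or 4.20 CPM (3.08 to 5.61) and 2.04 CPM (1.23 to 3.18). MT1A had 2 and 0 counts. No count was found in either library for 9 of the 16 loci, namely MT1M, MT1B, MT1H, MT1HL1, MT1L, MT1JP, MT1IP, MT3 and MT4.

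**Figure D1:**
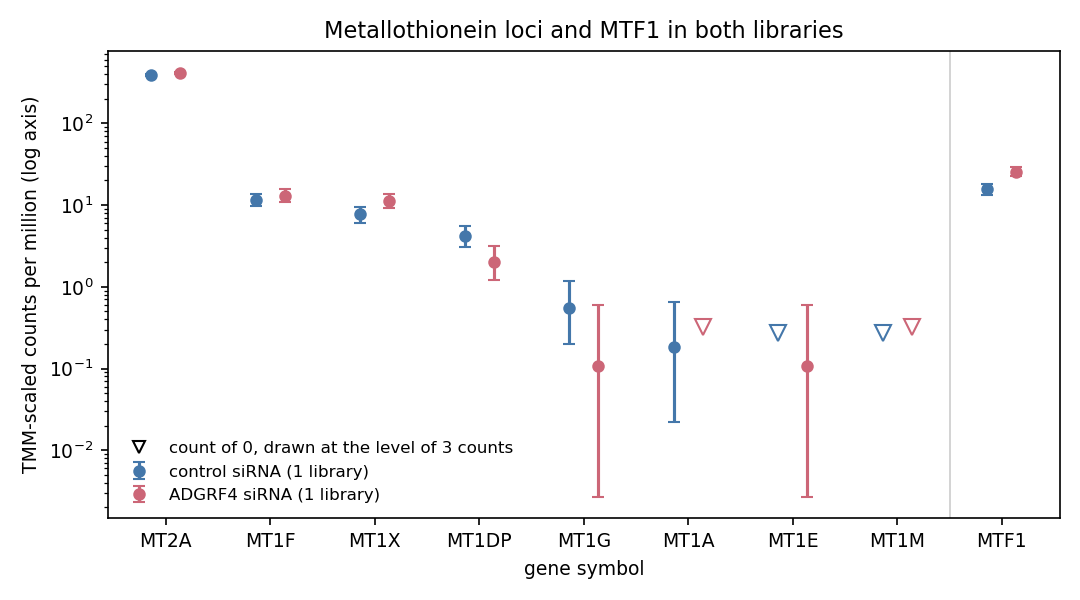
Level of each metallothionein locus that had a count, and of MT1M and MTF1, in TMM-scaled CPM on a log axis. Points are the single control siRNA library (blue) and the single ADGRF4 siRNA library (red), bars are exact 95% Poisson intervals, and open triangles mark a count of 0, drawn at the level of 3 counts. MT2A stands near 400 CPM in both libraries (388 and 412), and MT1F and MT1X lie between 7.67 and 13.1 CPM.

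Reads of near-identical family members can be credited to the wrong gene, and the authors' treatment of reads with several map positions is not stated in the sources used here. The extent of the overlap was taken from GENCODE 29 transcripts, by cutting the last 300 bases of each gene's principal transcript into all 251 windows of 50 bases. Of these windows, 14.3% for MT2A, 9.16% for MT1F, 30.7% for MT1X and 28.7% for MT1G also occurred in a transcript of another gene. MT2A windows recurred in MT1G, MT1X and 3 pseudogenes. Within the last 150 bases, nearest the poly(A) tail, none of the 101 windows of MT2A, MT1F, MT1X or MT1E was shared, against 26 for MT1M and 11 for MT1G. The windows of MTF1 were unique throughout. The counts of MT1G and MT1M are therefore the more uncertain ones. No exon of the 7 genes is overlapped by an annotated gene on the opposite strand, and MT1X shares exon sequence on its own strand with the transcript AC026461.1.

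Ratios were read for symbols that averaged 30 counts or more across the pair of libraries, 11771 in all, and 4 of the 7 genes were among them: MT2A, MT1F, MT1X and MTF1. Calls were made by size, at 2-fold on the scale of log2 of (CPM + 1). None of the 4 was called higher or lower. By the same rule 7.84% of all compared symbols were higher and 10.4% lower after ADGRF4 siRNA, so 0 of 4 lies near the background and is not a result about these genes. At 1.5-fold, 1 of the 4 was higher (MTF1) and 0 lower, against 21.1% and 22.3% of all compared symbols. The median log2 ratio of the 4 was 0.33, beside -0.02 for all compared symbols. That median includes MTF1, which is not a metallothionein and had the highest value (0.68). MT2A, MT1F and MT1X were at 0.09, 0.16 and 0.50.

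MT2A was 1.06-fold higher (1.02 to 1.11) with ADGRF4 siRNA, a log2 ratio of 0.09. That ratio was -0.061 when libraries were scaled by their totals, a scaling that moves the median of all compared symbols from -0.02 to -0.16, so the direction for MT2A rests on the scaling. Only 9.55% of compared symbols had a smaller absolute log2 ratio than MT2A. All metallothionein loci summed gave 4511 and 4094 counts, which is 0.0434% and 0.0417% of the library totals and 1.06-fold higher (1.02 to 1.11) after TMM scaling. The counting interval of MT2A lies inside 1.5-fold on both sides, and the error between cultures is unknown.

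MT1F was 1.13-fold higher (0.872 to 1.46), an interval that spans no difference. MT1X was 1.47-fold higher (1.09 to 1.98), which lies outside counting error after TMM scaling and short of the 2-fold rule. Total-count scaling lowered its log2 ratio from 0.50 to 0.36, and no interval was made under that scaling. Of all compared symbols, 49.8% had a smaller absolute log2 ratio than MT1X. MT1G was 5.12-fold lower (0.621 to 235), from 6 counts to 1, and the interval covers a difference in either direction.

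MTF1, the regulator of the family, was counted 171 and 240 times, or 15.6 CPM (13.4 to 18.1) and 25.7 CPM (22.6 to 29.2). It was 1.65-fold higher (1.35 to 2.01), and its log2 ratio of 0.68 exceeded that of 82.5% of compared symbols. Thus MTF1 RNA and MT2A RNA did not differ by the same factor between the libraries: MTF1 equalled 4.03% and 6.24% of the MT2A count, a ratio of 1.55 (1.26 to 1.91) that does not depend on how the libraries are scaled. MT1DP went the other way. It was 2.06-fold lower (1.19 to 3.73), and on the scale of log2 of (CPM + 1) its -0.78 did not reach the 2-fold rule.

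**Figure D2:**
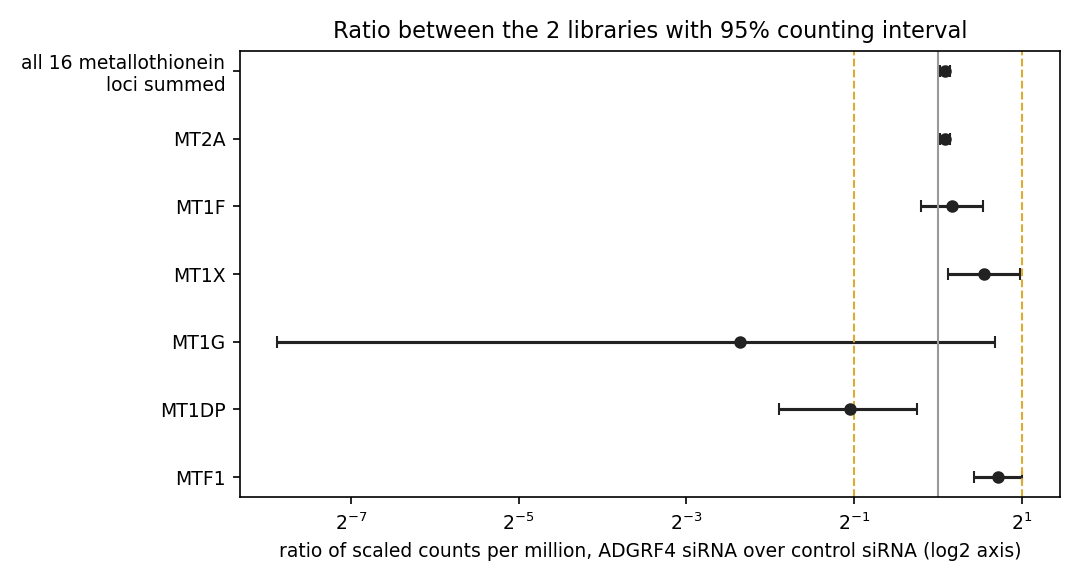
Ratio of TMM-scaled CPM, ADGRF4 siRNA over control siRNA, on a log2 axis, for MT2A, MT1F, MT1X, MT1G, MT1DP, MTF1 and the sum of all 16 metallothionein loci found. Points are ratios between 2 single libraries, bars are exact 95% intervals for counting error, and dashed lines mark 2-fold. MT2A and the sum sit at 1.06, MTF1 at 1.65 and MT1DP at 0.484, and the interval of MT1G spans more than the width between the dashed lines.

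Within the family, ratios to MT2A are free of library scaling in the same way. MT1X equalled 1.98% and 2.73% of the MT2A count, a ratio of 1.38 (1.02 to 1.87). MT1F equalled 2.99% and 3.17% of it, a ratio of 1.06 (0.817 to 1.38). The ratio of MT1X to MT1F differed by 1.30 (0.875 to 1.94), an interval that includes no difference. Relative to MT2A, MT1DP was 2.19-fold lower (1.26 to 3.97), from 1.08% to 0.494% of the MT2A count, and relative to MT1X it was 3.01-fold lower (1.59 to 5.88). Against MT1F the figure was 2.32-fold lower (1.25 to 4.44). The pseudogene thus had a lower ratio between these libraries than each of these 3 coding genes, by more than counting error.

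Across all genes the ratio moved with GC content at the 3' end, and the metallothionein genes and MTF1 lie at different points of that trend. The last 300 bases held 52.7% GC in MT2A, 51.0% in MT1F, 47.7% in MT1X and 28.0% in MTF1. The median log2 ratio of all compared symbols in the same bin of 3' GC content was 0.37 for MT2A and MT1F, 0.11 for MT1X and -0.36 for MTF1. After centring on these medians, the log2 ratio was -0.28 for MT2A, -0.21 for MT1F and 0.39 for MT1X. MT2A and MT1F therefore changed sign with centring, and MT1X did not. For MT1F the change of sign rests on the transcript used. Its longest transcript, with 51.0% GC, lies at the lower edge of its bin. The principal transcript has 49.3%, in the next bin down, where the median was 0.15, against 0.16 for MT1F before centring. MTF1 moved to 1.05, past the 2-fold rule. MT1DP, with 58.6% GC over an annotated transcript of 191 bases, moved from -0.78 to -1.50, also past it. The spread among the 5 loci was wider after centring than before it.

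**Figure D3:**
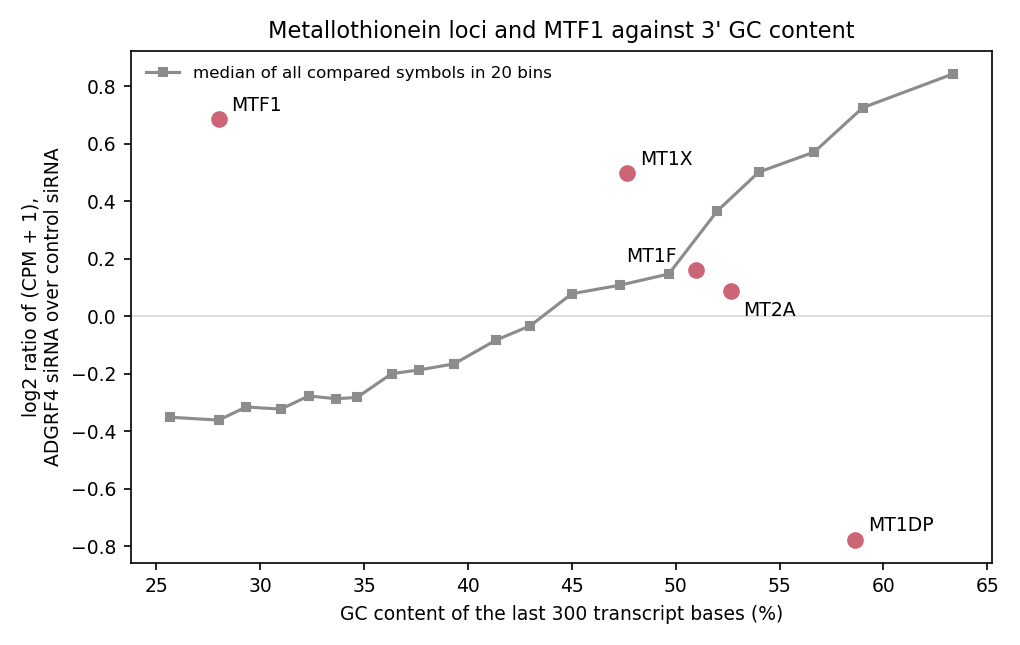
Log2 ratio of (CPM + 1), ADGRF4 siRNA over control siRNA, against GC content of the last 300 transcript bases in percent. Grey squares are medians of all compared symbols in 20 bins, and red points are single genes. MTF1 lies above the grey line at its GC content (0.68 against -0.36), MT1DP below it (-0.78 against 0.73), and MT2A and MT1F lie slightly under it.

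By the distance between levels in the 2 libraries, on log2 of (CPM + 1), the symbols nearest to MT2A were RPL23A, CALU, HNRNPM, H2AFV and CCT3, at distances of 0.048 to 0.092. RPL23A had 4135 and 3925 counts. With 2 libraries this likeness is only a shared level and a shared ratio.

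Other genes of zinc handling were spread around no difference. SLC30 proteins move zinc out of the cytosol. Of 10 SLC30 genes, 5 were compared, with 1 at least 2-fold higher (SLC30A3, 2.22-fold, 1.91 to 2.58) and 0 lower. SLC30A1, the zinc exporter of the cell surface and a known target of MTF1, was under the count limit with 21 and 6 counts, 2.98-fold lower (1.16 to 9.04), and it is named after its values were seen. MT2A, which MTF1 is also known to drive, had a ratio of 1.06 (1.02 to 1.11), beside 0.335 (0.111 to 0.858) for SLC30A1. Whether the activity of MTF1 differed between the libraries was not tested. SLC39 proteins bring zinc into the cytosol. Of 14 SLC39 genes, 12 were compared, with 0 at least 2-fold higher and 1 lower (SLC39A14, 2.25-fold, 1.75 to 2.93). By the same rule 7.84% of all compared symbols were higher and 10.4% lower. The SLC39 counts lie near these shares, and the SLC30 call is 1 gene. SLC39A9 was 1.77-fold lower (1.60 to 1.96), and SLC39A11 1.56-fold (1.40 to 1.74) and SLC39A5 2.02-fold higher (1.70 to 2.40). The log2 ratio of SLC39A5 was 0.98, and 0.14 after centring on 3' GC content. After centring, SLC30A3 (0.75) and SLC39A14 (-0.77) also fell short of the 2-fold rule. The median log2 ratios were -0.13 for SLC30 and -0.07 for SLC39 genes, beside 0.33 for the metallothionein genes and MTF1. After centring they were 0.15, -0.13 and 0.09 in the same order, so the order of the SLC30 genes and the metallothionein genes with MTF1 turned.

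Copper is the other physiological metal of metallothioneins. Of 15 copper genes, 13 were compared, with a median of 0.08. At 2-fold, 1 was higher and 2 lower, against 7.84% and 10.4% of all compared symbols, so these counts lie near the background. COX17, a copper chaperone of mitochondria, was 5.58-fold lower (4.92 to 6.35) and CUTC 2.62-fold lower (1.98 to 3.50). ATOX1, the cytosolic chaperone that serves the copper pumps, was 2.14-fold higher (1.96 to 2.34). SOD1, the copper and zinc superoxide dismutase, was at 335 and 354 CPM. It was 1.06-fold higher (1.01 to 1.11), as MT2A was, a difference smaller than the shift that total-count scaling makes. After centring on 3' GC content the likeness was lost, with log2 ratios of 0.40 for SOD1 and -0.28 for MT2A.

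Genes that are commonly induced together with metallothioneins by cadmium or oxidants ran from a log2 ratio of -1.82 to 1.52. Of 14 genes, 13 were compared, with 1 at least 2-fold higher and 4 lower, against 7.84% and 10.4% of all compared symbols, and a median of -0.01. GCLM is the modifier subunit of the enzyme that starts glutathione synthesis, and SLC7A11 is the cystine transporter. After TMM scaling both lay nearer no difference than MT2A, at 0.993-fold (0.922 to 1.07) and 1.03-fold (0.973 to 1.08). After centring on 3' GC content they lay farther from it, with log2 ratios of 0.34 and 0.40 against -0.28 for MT2A. HMOX1, heme oxygenase, was 2.90-fold higher (2.68 to 3.15). The co-chaperone BAG3 was 3.84-fold lower (2.98 to 4.99), SRXN1, which repairs peroxiredoxins, 2.86-fold lower (2.67 to 3.08), and HSPA1A, an inducible HSP70, 2.71-fold lower (2.43 to 3.03), with reads that its near-identical copy HSPA1B can share. TXNRD1, thioredoxin reductase, had a log2 ratio of -1.14 and of -0.87 after centring on 3' GC content, short of the 2-fold rule. DNAJB1 and OSGIN1 went the other way, at 1.98-fold (1.88 to 2.09) and 1.89-fold (1.61 to 2.22) higher. Their centred log2 ratios were 0.91 and 0.05. At 1.5-fold, 3 genes of this list were higher and 5 lower, against 21.1% and 22.3% of all compared symbols.

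The glucocorticoid receptor and its targets included 15 compared genes of 18, with a median of -0.51, against 0.33 for the metallothionein genes and MTF1. At 2-fold, 1 was higher and 2 lower, against 7.84% and 10.4% of all compared symbols, so these counts lie near the background. At 1.5-fold, 3 were higher and 7 lower, against 21.1% and 22.3% of all compared symbols. DUSP1 and ERRFI1, feedback regulators of kinase signalling, were 2.19-fold (2.03 to 2.37) and 2.11-fold (1.86 to 2.40) lower, and RGS2, which restrains G protein signalling, had 225 and 96 counts and a log2 ratio of -0.93. SCNN1A, an epithelial sodium channel subunit, was 2.34-fold higher (1.91 to 2.88). The receptor gene NR3C1, counted 1605 and 885 times, was 1.55-fold lower (1.42 to 1.68). After centring on 3' GC content the median of this list was -0.28, beside 0.09 for the metallothionein genes and MTF1. DUSP1 and ERRFI1 were then at -0.81 and -0.70, short of the 2-fold rule. FKBP5, a co-chaperone of the receptor, moved from -0.71 to -1.28, past it.

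**Figure D4:**
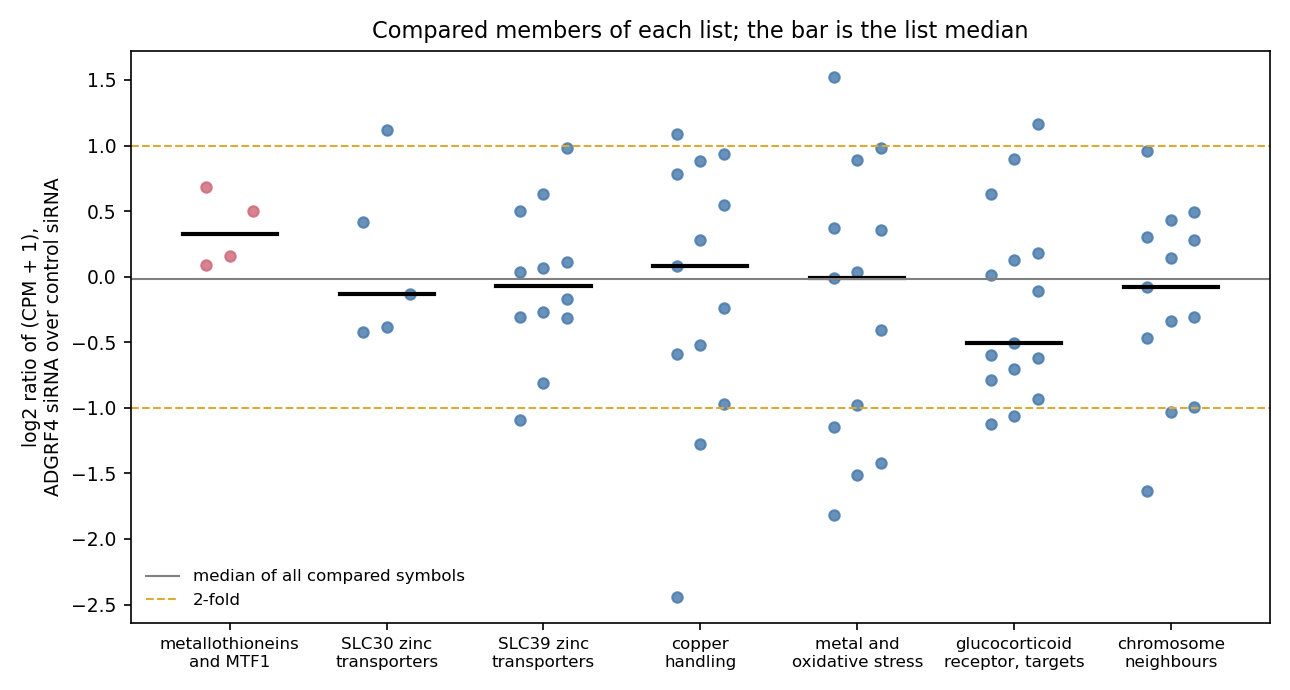
Log2 ratio of (CPM + 1), ADGRF4 siRNA over control siRNA, for each compared gene of 7 lists. Points are genes, black bars list medians, the grey line the median of all compared symbols (-0.02) and dashed lines mark 2-fold. The metallothionein genes and MTF1 (red) run from 0.09 to 0.68, and the copper genes run from -2.44 to 1.09.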

How the data were processed

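The deposited values are raw counts by gene symbol, whole numbers with 1 file per library. Build hg19, Bowtie2 and edgeR are named per the submitters' processing notes. Their roles and versions, the annotation and the strand and multi-mapping settings are not stated in the sources used here. Rows of 1 symbol were summed (HSPA1A, HSPA1B and SLC39A7 among those named). Scaling was by TMM (edgeR 4.0.16, R 4.3.3). Log2 ratios of (CPM + 1) were computed for all symbols averaging 30 counts or more. Folds are ratios of CPM without a pseudocount, with Clopper-Pearson intervals; levels have exact Poisson intervals, and ratios between genes the conditional odds ratio with its exact interval (scipy 1.17.1). A floor of 3 counts was used. Reads without molecular identifiers are not independent molecules.

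The members and lists were chosen with earlier results of these data known. Named genes are all members, every other metallothionein locus, ADGRF4, up to 4 compared genes per list by absolute log2 ratio, and the 5 symbols nearest MT2A. Not all of these are given in full. Outside this rule, SLC30A1, SOD1, NR3C1, FKBP5, GCLM, SLC7A11, TXNRD1, DNAJB1, OSGIN1, HSPA1B, NUP93, OGFOD1, FAM192A and HERPUD1 were chosen after their values were seen. For 94.6% of compared symbols, 3' GC content was read from GENCODE 29 (longest transcript, last 300 bases). The annotation is on GRCh38 and the counts on hg19, so only symbols were joined. The calculations were tested on simulated data. Alternatives were total-count, DESeq2 1.42.0 and upper-quartile scaling, other pseudocounts, count limits and thresholds, centring in 20 bins of 3' GC content, and summed metallothionein counts. The values of a gene in the list of chromosomal neighbours are not reported here.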

Additional observations from a re-analysis of the deposited data

How the results depend on the processing

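With 1 library per treatment, the largest unknown is the variation between cultures, and no setting below bears on it. Centring on 3' GC content gave log2 ratios of -0.21 for MT1F, -0.28 for MT2A and 1.05 for MTF1, and total-count scaling gave -0.061 for MT2A, each outside the counting interval of the value reported. The centred value of MT1F rests on its longest transcript, whose GC content lies at the edge of a bin. MT1X stayed inside its interval under all 6 alternatives tried on it, between 0.36 and 0.55. The number of these genes called higher was 1 (MTF1) after centring and 1 (MTF1) at a 1.5-fold threshold, and 0 under the 9 other alternatives; the number called lower was 0 under all 11. MT1DP was -1.01 with a pseudocount of 0.1 CPM, past 2-fold. Over the 11771 compared symbols, 923 higher became 556 with total-count scaling, 528 with a pseudocount of 5 CPM and 2482 at 1.5-fold. After centring, 417 were higher of the 11139 symbols that had a 3' GC content. The 1219 lower became 699 with a pseudocount of 5 CPM and 2624 at 1.5-fold, and with total-count scaling they were 1563. A limit of 100 counts left fewer symbols to compare, with 811 lower of 8855. Depth limited MT1E, MT1G and MT1M, with at most 6 counts in a library. No paired analysis was possible because each treatment has 1 library.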

Other observations

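Of 18 genes beside the metallothionein cluster on chromosome 16, 13 were compared, with 0 at least 2-fold higher and 2 lower, against 7.84% and 10.4% of all compared symbols, and a median log2 ratio of -0.08. These counts lie near the background and are not a result about the neighbours, of which 9 lay within 1.5-fold. FAM192A was 1.11-fold higher (1.02 to 1.20), and HERPUD1 was at 0.944-fold (0.818 to 1.09), an interval that spans no difference. BBS2, which encodes a subunit of the ciliary BBSome and flanks the cluster on the side of MT4 and MT2A, was 3.82-fold lower (2.50 to 6.03), with 121 and 27 counts. PLLP, with a log2 ratio of -0.99, was 2.24-fold lower (1.52 to 3.36). CIAPIN1, an iron-sulfur cluster assembly factor, was 1.95-fold higher (1.77 to 2.16). NUP93, a nuclear pore gene on the side of MT1X, was 1.26-fold lower (1.16 to 1.37). OGFOD1, the next gene beyond BBS2, was 1.36-fold higher (1.24 to 1.48).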
